A study of Homo sapiens with 6 samples.

Results

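The genes described here are 10 genes of pericellular proteolysis: the tissue inhibitors of metalloproteinases TIMP1, TIMP2 and TIMP3, the membrane-type matrix metalloproteinases MMP14 and MMP15, and the ADAM-family genes ADAM9, ADAM10, ADAM17, ADAM32 and ADAMTS1. They are 10 of the 18417 genes that the array annotation named. The set was chosen by the siRNA differences of TIMP2 and ADAM32, which lay lower with NRF3 siRNA in both HCT116 lines, and the other 8 genes are relatives named with them. The siRNA values below are therefore a description and were not tested. Each gene is represented by the probe set with a single gene symbol that had the highest mean over the 6 arrays, and all 10 genes were found.

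Each of 6 groups had 1 Affymetrix whole-transcript array. Human colon cancer HCT116-p53KO cells, described in the labels as lacking p53, carried NRF3 siRNA or control siRNA for 48 h. HCT116 cells, the parent line of that derivative, carried the same siRNAs for the same time. H1299 cells, a non-small cell lung carcinoma line, stably expressed NRF3 or GFP from a plasmid under G-418 selection. The sources used here do not give the siRNA sequences, or whether the H1299 cells were 1 clone or a pool. NRF3 is a CNC-family transcription factor encoded by NFE2L3.

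Matrix metalloproteinases cut collagens, laminins and other matrix proteins, and ADAM proteinases cut the outer parts of membrane proteins, a step called shedding. TIMPs bind the active site of these enzymes and block it. TIMP2 also has a second role: bound to MMP14 at the cell surface it captures the proenzyme of MMP2, which a free MMP14 molecule then cuts. In colon epithelium, shedding by ADAM10 and ADAM17 releases growth factors and fragments of Notch receptors and of E-cadherin.

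Values are RMA log2 intensities, in which 1 unit is a doubling of signal, and differences are on the same log2 scale. A level under 6 is low on this scale and is marked as such, since the size of a difference is uncertain there. A difference counted as past 1.5-fold was at least 0.585 in size, and one past 2-fold was at least 1. With 1 array per group, no difference could be set against a spread between replicates, and precision is limited by that number. The H1299 arrays had median intensities of 6.05 and 6.08, and those of the HCT116 family medians of 6.95 or more, so deposited levels are not compared across these sets. Different genes are not set against each other in level, because probe sets differ in brightness. Each array measured bulk RNA, so fewer expressing cells and less RNA per cell cannot be told apart.

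NFE2L3 followed the labels. Its level was 7.15 with NRF3 siRNA and 8.71 with control siRNA in HCT116-p53KO, and 6.62 against 8.97 in HCT116. In H1299 it was 10.20 with NRF3 and 8.18 with GFP. The level of p53 itself is not analysed here. Epithelial markers were well above 6 in the colon lines, with KRT8 at 12.37 to 13.51 and EPCAM, a surface adhesion molecule, at 10.91 to 11.42. Of the colon markers only CDX1 and CDX2 reached 6 on every HCT116-family array, CDX2 at 8.39 to 8.69, while VIL1, LGR5 and CDH17 were under 6. In H1299, 2 of these 5 colon markers also reached 6 on at least 1 array, so they do not set the colon lines apart by this mark. H1299 had VIM, the mesenchymal filament vimentin, at 12.08 with NRF3 and 12.45 with GFP, and EPCAM at 3.74 and 3.98. Its markers were mixed: the epithelial keratins KRT8 and KRT18 were at 10.10 to 11.13, CDH1, KRT19, CLDN4 and ELF3 were under 6, and so were the mesenchymal COL1A2, PDGFRB, DCN and LUM. The lung markers NKX2-1, SFTPB and SFTPC were also under 6 in H1299.

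Promoter sequences of RefSeq (GRCh38.p14) were matched by symbol for 6 of the genes. TIMP2 and ADAMTS1 had no window to match. ADAM9 and ADAM32 were left out by a rule on genomic location, not for lack of a matching symbol. TIMP2, ADAM9, ADAM32 and ADAMTS1 were therefore not searched for motifs, and nothing is known here of their promoters. Sequences of the sheddases ADAM17 and ADAM10 are shown because both genes lay lower on both NRF3 siRNA arrays. Each line gives the 250 bases before the annotated start, 5′ to 3′ on the minus strand, with capitals for the 50 bases next to the start. ADAM17 is at chr2:9555831-9556080 and ADAM10 at chr15:58749708-58749957.
ADAM17: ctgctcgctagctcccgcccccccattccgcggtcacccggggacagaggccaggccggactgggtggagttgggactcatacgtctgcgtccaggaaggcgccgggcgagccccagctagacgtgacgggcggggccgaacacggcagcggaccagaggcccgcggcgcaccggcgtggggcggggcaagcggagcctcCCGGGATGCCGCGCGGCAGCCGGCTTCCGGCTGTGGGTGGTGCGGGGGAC
ADAM10: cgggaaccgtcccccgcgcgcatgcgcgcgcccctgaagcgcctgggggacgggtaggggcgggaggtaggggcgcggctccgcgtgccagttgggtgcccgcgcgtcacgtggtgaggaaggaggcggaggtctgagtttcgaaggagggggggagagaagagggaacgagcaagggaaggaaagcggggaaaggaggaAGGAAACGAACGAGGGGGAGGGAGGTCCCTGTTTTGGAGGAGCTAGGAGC
Neither window, extended by 50 bases past the start, held TGACNNNGC, the core of the antioxidant response element bound by CNC factors with small MAF partners, on either strand. Neither held TGANTCA, the AP-1 site, and nor did the windows of TIMP1, TIMP3, MMP14 and MMP15. Among all 35116 windows of this length, 13.3% held the first motif and 7.71% the second. Both windows were rich in G and C, at 74.7% for ADAM17 and 68.0% for ADAM10, against a median of 58.7% over all windows.

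Among the inhibitors, TIMP2 was the one with a large siRNA difference, by which it had been chosen. TIMP2 stood at 8.60 on the NRF3 siRNA array and at 9.92 on the control siRNA array of HCT116-p53KO. In HCT116 the levels were 9.20 with NRF3 siRNA and 10.46 with control siRNA. Both NRF3 siRNA arrays lay below both control siRNA arrays, and all 4 were well above 6. The differences were -1.33 in HCT116-p53KO, or 2.51-fold lower, and -1.26 in HCT116, or 2.39-fold lower. They ranked 17 from the lowest of 13680 genes in HCT116-p53KO and 46 from the lowest of 14034 in HCT116, and differed between the lines by -0.07. H1299 showed no such contrast, with TIMP2 at 8.65 with NRF3 and 8.64 with GFP, a difference of 0.01 that became -0.05 after a joint quantile normalization of all arrays and -0.04 after loess correction. CEP295NL, a gene that overlaps TIMP2 in RefSeq, was lower alongside it, at 6.66 with NRF3 siRNA and 7.47 with control siRNA in HCT116-p53KO and at 6.86 against 7.54 in HCT116. Those differences were -0.81 and -0.68, so the signals of both genes cannot be taken as separate.

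TIMP1, a soluble inhibitor that acts weakly on membrane-type MMPs, differed little after siRNA. It was at 12.71 with NRF3 siRNA and 12.60 with control siRNA in HCT116-p53KO, and at 12.67 against 12.55 in HCT116. In H1299 it was lower with NRF3, at 12.26, than with GFP, at 12.86. The difference of -0.60, or 1.52-fold, made TIMP1 the one gene of the 10 past 1.5-fold in that line, just beyond the mark.

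TIMP3 binds to the matrix and, unlike the other inhibitors here, blocks ADAM17. Its level was 5.56 with NRF3 siRNA and 5.77 with control siRNA in HCT116-p53KO, both under 6, and 6.35 against 6.64 in HCT116. In H1299 both arrays were again under 6, at 4.91 with NRF3 and 4.50 with GFP. The differences of -0.21, -0.30 and 0.40 were all smaller than 1.5-fold, and those in HCT116-p53KO and H1299 rest on low signals alone. A second TIMP3 probe set was under 6 on all arrays, at 4.23 to 4.94. TIMP3 lies inside SYN3, a synapsin gene, which differed by -0.22 in HCT116-p53KO and 0.24 in HCT116.

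The membrane-type MMPs stayed near their controls. MMP14, which cuts collagen at the cell surface, was at 6.78 with NRF3 siRNA and 6.87 with control siRNA in HCT116-p53KO, at 6.86 against 6.68 in HCT116, and at 7.02 with NRF3 against 7.05 with GFP in H1299. MMP15, its close relative, was at 8.09 against 8.07 in HCT116-p53KO and 8.36 against 8.49 in HCT116 for the same siRNAs. In H1299 MMP15 was under 6 on both arrays, at 5.53 with NRF3 and 5.41 with GFP. The largest of these 6 differences was 0.18, for MMP14 in HCT116. TIMP2 was thus lower on the siRNA arrays while the signal of MMP14, its partner at the cell surface, differed by -0.09 in HCT116-p53KO and by 0.18 in HCT116.

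**Figure D1:**
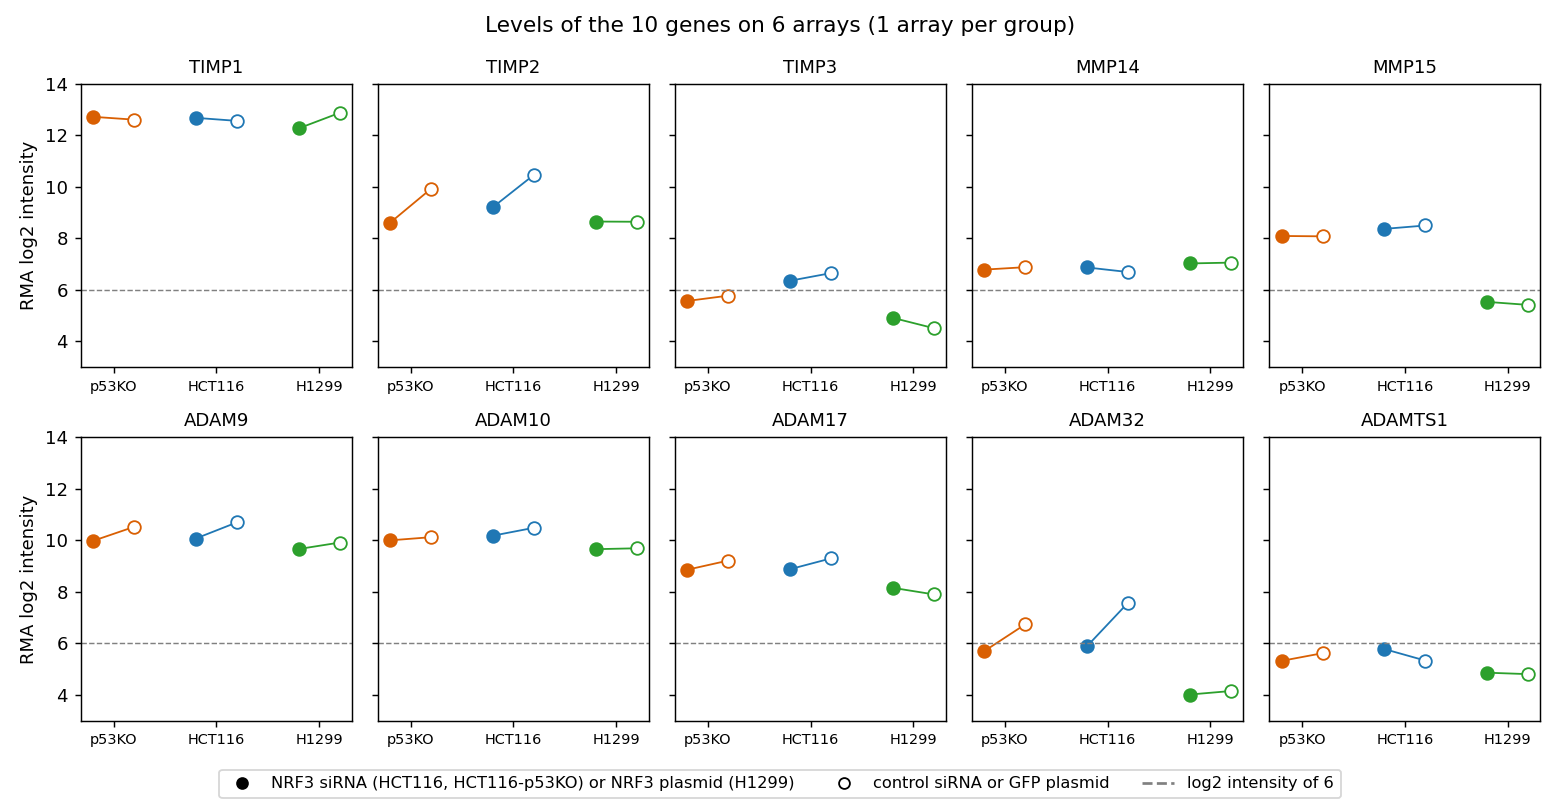
RMA log2 intensity of each of the 10 genes on the 6 arrays, with 1 point per array and a line joining the arrays of 1 cell line. Filled points are NRF3 siRNA or the NRF3 plasmid, open points control siRNA or GFP, p53KO is HCT116-p53KO and the dashed line marks 6; TIMP2 and ADAM32 have the steepest lines in both colon lines and nearly flat ones in H1299.

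The catalytic sheddases ADAM9, ADAM10 and ADAM17 were all lower with NRF3 siRNA, by less than TIMP2. Of all genes, 49.5% were lower in HCT116-p53KO and 48.4% in HCT116. ADAM9 was at 9.98 with NRF3 siRNA and 10.52 with control siRNA in HCT116-p53KO, and at 10.07 against 10.69 in HCT116. The differences of -0.55 and -0.63 lay on either side of the 1.5-fold mark, and ADAM9 is thus counted past it in HCT116 alone. After loess correction the sides changed, to -0.59 in HCT116-p53KO and -0.56 in HCT116, so nothing separates the lines here. In H1299 ADAM9 was at 9.66 with NRF3 and 9.91 with GFP. TM2D2, whose gene overlaps ADAM9, differed in the same directions, by -0.53 in HCT116-p53KO, -0.71 in HCT116 and -0.42 in H1299.

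ADAM17, the main sheddase of tumour necrosis factor and of several ligands of the EGF receptor, was at 8.86 with NRF3 siRNA and 9.21 with control siRNA in HCT116-p53KO. In HCT116 it was at 8.88 against 9.30. The differences, -0.36 and -0.42, were close in the lines and under 1.5-fold in each. In H1299 ADAM17 was higher with NRF3, at 8.15, than with GFP, at 7.90. That difference of 0.26 ranked 2232 from the highest of 11304 genes and was smaller than their SD of 0.38. The sign for ADAM17 was thus that of NFE2L3 in all 3 lines, by at most 0.42. How many of all genes share this pattern was not counted. The overlapping gene IAH1, an esterase, did not follow ADAM17: its siRNA differences were 0.15 and 0.00, and in H1299 it stood at 6.65 with NRF3 and 8.03 with GFP.

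ADAM10, which cuts Notch receptors and E-cadherin, differed least of these sheddases. It was at 10.00 with NRF3 siRNA and 10.12 with control siRNA in HCT116-p53KO, at 10.18 against 10.48 in HCT116, and at 9.65 with NRF3 against 9.69 with GFP in H1299. Each difference was negative, from -0.31 in HCT116 to -0.03 in H1299. The siRNA differences ranked 4050 from the lowest of 13680 genes in HCT116-p53KO and 2546 of 14034 in HCT116. Both were smaller than the SD over all genes, 0.30 in HCT116-p53KO and 0.35 in HCT116.

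ADAM32, an ADAM-family member known mainly from testis and thought to lack an active catalytic site, had the largest siRNA difference of the 10 genes in HCT116. It was at 5.70 with NRF3 siRNA and 6.74 with control siRNA in HCT116-p53KO, and at 5.89 against 7.58 in HCT116. Both control siRNA arrays were above 6 and both NRF3 siRNA arrays below it, so ADAM32 entered these comparisons through its controls and the sizes are uncertain. The differences were -1.04 in HCT116-p53KO, or 2.06-fold lower, at rank 45 from the lowest, and -1.69 in HCT116, or 3.23-fold lower, at rank 10. The first of these was -0.96 after joint quantile normalization and -0.99 after loess correction, just short of 2-fold. In H1299 the signal was under 6 on both arrays, at 4.01 with NRF3 and 4.15 with GFP.

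ADAMTS1, a secreted proteinase that cuts versican and aggrecan, was under 6 on all 6 arrays. Its level was 5.32 with NRF3 siRNA and 5.62 with control siRNA in HCT116-p53KO, 5.78 against 5.33 in HCT116, and 4.86 with NRF3 against 4.80 with GFP in H1299. It therefore enters none of the counts below.

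**Figure D2:**
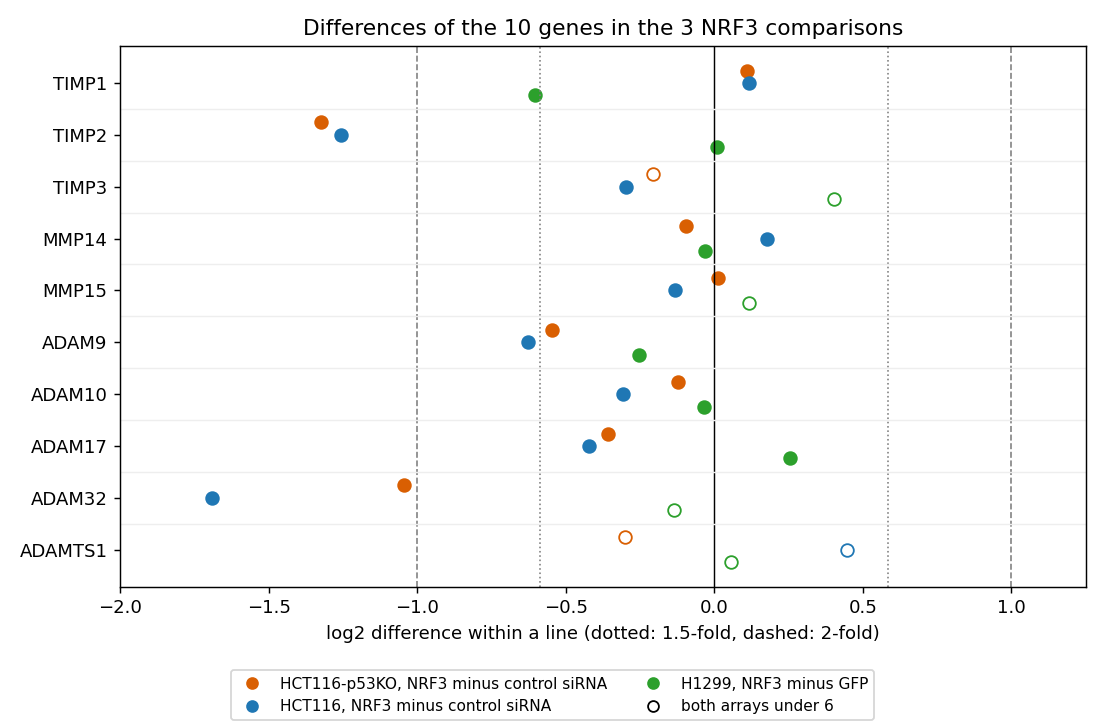
Log2 difference of each gene within HCT116-p53KO and HCT116 (NRF3 minus control siRNA) and within H1299 (NRF3 minus GFP), with open points where both arrays were under 6. Dotted lines mark 1.5-fold and dashed lines 2-fold; TIMP2 and ADAM32 lie beyond 2-fold lower in both colon lines, and all other points lie within 0.63 of 0.

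Counts over the 10 genes are set beside the shares of all genes past the same size. In HCT116-p53KO, 8 of the 10 reached 6 on either array, and 2 of these 8 were past 1.5-fold lower, where 2.38% of 13680 genes were; none was past 1.5-fold higher, where 3.63% were. In HCT116, 9 were measured, 3 were past 1.5-fold lower against 6.02% of 14034 genes, and none was higher against 2.71%. At 2-fold lower the same 2 genes, TIMP2 and ADAM32, counted in each line, against 0.431% in HCT116-p53KO and 1.03% in HCT116. Nothing is read from these siRNA counts, since that contrast chose the set. The median difference was -0.24 over the 8 genes in HCT116-p53KO and -0.31 over the 9 in HCT116, against 0.00 and 0.01 over all genes.

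The rule did not use the H1299 arrays. There 6 of the 10 genes were measured, 1 was past 1.5-fold lower against 4.20% of 11304 genes, and 0 were past 1.5-fold higher against 4.82%. The median difference was -0.03, against 0.00 over all genes. TIMP3, MMP15, ADAM32 and ADAMTS1 were under 6 on both arrays. Raised NRF3 thus came with a difference past 1.5-fold in TIMP1 alone, and the signal of TIMP2 with NRF3 was 1.01-fold that with GFP.

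The control siRNA arrays allow the colon lines to be compared without NRF3 siRNA. TIMP3 was at 5.77 in HCT116-p53KO, under 6, and at 6.64 in HCT116, a difference of -0.88. That became -0.44, short of 1.5-fold, when its probe sets were averaged. ADAM32 was lower by -0.84 and TIMP2 by -0.54, or 1.45-fold, with levels of 9.92 in HCT116-p53KO and 10.46 in HCT116. MMP15 differed by -0.42 and ADAM10 by -0.36. Of 9 measured genes 7 were lower in HCT116-p53KO, where 48.5% of all genes were. Past 1.5-fold lower were 2 of them, TIMP3 and ADAM32, against 3.45% of 13827 genes. None was past 1.5-fold higher against 0.868%. TIMP3 entered this count through its HCT116 level alone, so the count rests in part on a low signal. TIMP1, MMP14, ADAM9 and ADAM17 differed by 0.19 or less. These control arrays also serve as the controls of the siRNA comparisons above, so the values share arrays with them.

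Within the HCT116 family the order of the TIMP2 arrays was NRF3 siRNA in HCT116-p53KO, NRF3 siRNA in HCT116, control siRNA in HCT116-p53KO and control siRNA in HCT116, from low to high. ADAM32 had that same order. The siRNA difference in HCT116-p53KO minus that in HCT116 was 0.65 for ADAM32, past 1.5-fold, as it was for 4.26% of 14148 genes, and no measured gene of the 10 was past it in the other direction, where 2.61% were. The remaining 8 measured genes lay between -0.27 and 0.18. For ADAM32 the difference between the lines rests on control levels of 6.74 in HCT116-p53KO and 7.58 in HCT116, since its NRF3 siRNA levels, 5.70 and 5.89, were both under 6. The siRNA difference of NFE2L3 also differed between the lines, by 0.80, and its part in the ADAM32 value was not tested.

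Levels in lung and colon cells were set side by side only after the joint quantile normalization. On that scale TIMP2 was at 9.29 in GFP-expressing H1299 and 10.16 in control siRNA HCT116, MMP15 at 5.98 against 8.17 and ADAM32 at 4.59 against 7.27. MMP14 and TIMP1 ran the other way, MMP14 at 7.67 in H1299 against 6.38 in HCT116 and TIMP1 at 13.29 against 12.34. ADAM9 and ADAM10 differed by 0.13 and 0.15. Over all 18417 genes the SD of this difference was 0.94, so MMP14, MMP15, TIMP3 (-1.34), TIMP1 (0.96) and ADAM32 exceeded it and the other 5 genes did not. TIMP3, MMP15, ADAM32 and ADAMTS1 were under 6 in GFP-expressing H1299 on this scale, so their sizes are uncertain. Against control siRNA HCT116-p53KO some differences were unlike these, at -0.48 for TIMP3, -0.30 for TIMP2 and 0.56 for ADAM10. Those of TIMP1, MMP14, MMP15 and ADAM32 were 0.96, 1.11, -1.775 and -1.84. No SD over all genes was taken for that comparison.

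**Figure D3:**
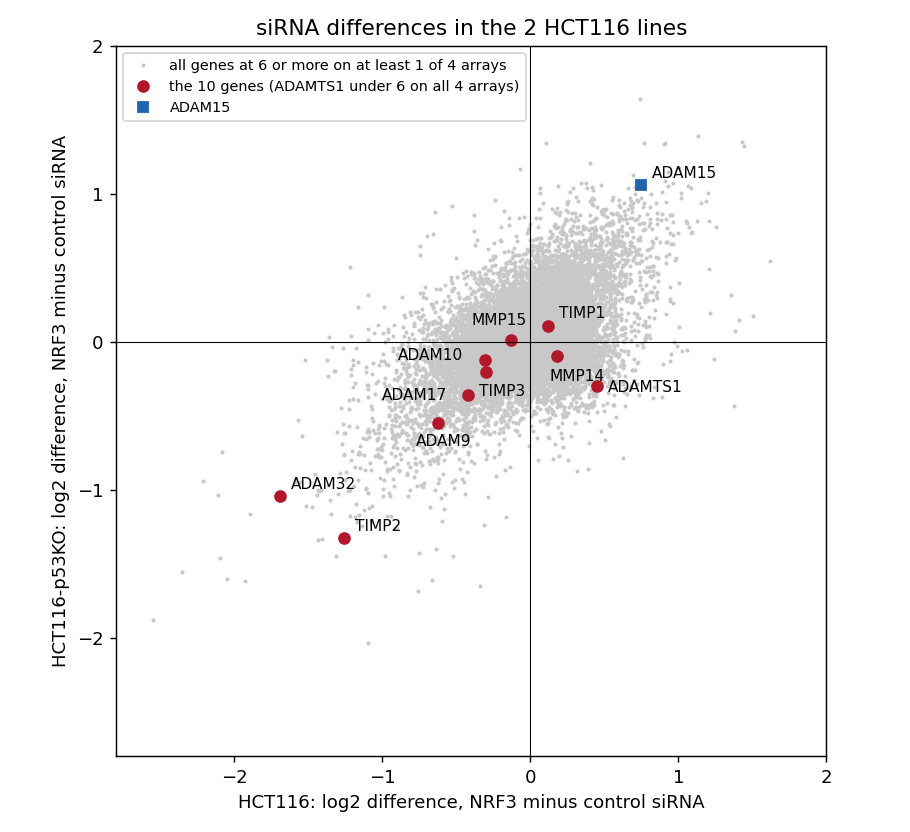
Log2 difference with NRF3 siRNA in HCT116 (x axis) and in HCT116-p53KO (y axis) for every gene that reached 6 on any of the 4 arrays (grey), the 10 genes (red) and ADAM15 (blue). TIMP2 at -1.26 and -1.33 and ADAM32 at -1.69 and -1.04 lie at the lower left edge of the cloud, ADAM15 at 0.75 and 1.06 at its upper right, and the other 8 labelled genes in or near its body.

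Genes whose 3 NRF3 differences were nearest to those of TIMP2 were sought by Euclidean distance over HCT116-p53KO, HCT116 and H1299, among 10856 genes that reached 6 in each comparison. The nearest was PXN, which encodes the focal adhesion protein paxillin, at a distance of 0.14, with differences of -1.22, -1.17 and 0.04 in that order of lines. ID2, an inhibitor of basic helix-loop-helix factors, followed at 0.18, then RRAGC, a GTPase that recruits mTORC1 to lysosomes, at 0.21. SFT2D2 at 0.24 and LASP1, an actin-binding adaptor, at 0.24 completed the 5. The genes nearest to ADAM32 were TOMM20, the mitochondrial import receptor, at 0.29, YIPF1 at 0.32, the centromere protein OIP5 at 0.41, EVI5 at 0.43 and TAF13, a subunit of the general factor TFIID, at 0.43. These distances span 3 differences and describe likeness on these arrays. Those to ADAM32 are uncertain in size and order, since ADAM32 was under 6 on both H1299 arrays and on both NRF3 siRNA arrays.

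Of 16 other ADAM genes on the array 7 were measured in each colon line, and ADAM15, a catalytically active ADAM, stood out as higher. ADAM15 was at 9.41 with NRF3 siRNA and 8.35 with control siRNA in HCT116-p53KO, and at 9.36 against 8.62 in HCT116. The differences were 1.06 and 0.75, opposite in sign to those of ADAM9, ADAM10 and ADAM17, while in H1299 ADAM15 differed by -0.13. ADAM19 was also past 1.5-fold higher in HCT116, at 10.30 with NRF3 siRNA and 9.61 with control siRNA, and differed by 0.27 in HCT116-p53KO. Past 1.5-fold higher were 1 of the 7 in HCT116-p53KO and 2 in HCT116, beside 3.63% and 2.71% of all genes. None of the 7 was past 1.5-fold lower in either line, beside 2.38% and 6.02%. The median of the 7 was 0.27 in each line, and it was -0.13 for the 6 measured in H1299, where none was past 1.5-fold.

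Of 20 other matrix metalloproteinases, 6 were measured in HCT116-p53KO, 9 in HCT116 and 3 in H1299. MMP2, whose proenzyme TIMP2 and MMP14 activate together, was under 6 on all 6 arrays, at 5.06 to 5.85. Only MMP11, stromelysin 3, was past 1.5-fold in a colon line, at 8.03 with NRF3 siRNA and 7.35 with control siRNA in HCT116; its difference there was 0.68, against 0.01 in HCT116-p53KO. MMP7, matrilysin, differed by 0.47 in HCT116, with 6.38 against a control level of 5.91, under 6, and was under 6 in HCT116-p53KO. In H1299, MMP16 was at 5.85, under 6, with NRF3 and 6.60 with GFP, a difference of -0.75. Medians were -0.07 in HCT116-p53KO, which turned to 0.02 after joint quantile normalization, 0.10 in HCT116, which turned to -0.00 after loess correction, and -0.09 in H1299.

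Of 21 other ADAMTS and ADAMTS-like genes on the array, 9 were measured in HCT116-p53KO and 11 in HCT116, and none was past 1.5-fold in either line. Higher were 3 of the 9 in HCT116-p53KO, or 5 of 9 under either correction. In HCT116 10 of the 11 were higher, or 9 of 11 after loess correction. Lower in these lines were 49.5% and 48.4% of all genes. The largest difference was 0.57, for ADAMTS14, a procollagen proteinase, in HCT116, against 0.29 in HCT116-p53KO. ADAMTS16 was at 5.89, under 6, with NRF3 and 6.50 with GFP in H1299, a difference of -0.61, or -0.56 after loess correction. A list of 10 other inhibitors, not all of them inhibitors of metalloproteinases, had 5 measured in each colon line and 4 in H1299. None differed past 1.5-fold. RECK, a membrane-anchored MMP inhibitor, differed by 0.06, -0.02 and 0.11 in HCT116-p53KO, HCT116 and H1299. CST3, cystatin C, differed most, at -0.54 in H1299, or -0.60 after loess correction. TIMP4 was under 6 on all arrays. No contrast with TIMP2 is drawn from this list, since TIMP2 was chosen by its siRNA differences.

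Partners that carry ADAM10, ADAM17 and MMP14 to the surface or activate them were mostly well measured, 16 of 17 in each colon line. TSPAN15, a tetraspanin that escorts ADAM10, was at 8.57 with NRF3 siRNA and 9.39 with control siRNA in HCT116-p53KO, and at 9.15 against 9.77 in HCT116. The differences were -0.82 and -0.62, the second becoming -0.54 after joint quantile normalization. TSPAN14, another ADAM10 partner, differed by -0.73 in HCT116 and -0.28 in HCT116-p53KO. FURIN, the convertase that removes the propeptides of these enzymes, differed by -0.51 in HCT116-p53KO and -0.59 in HCT116, and its HCT116 value was -0.56, short of 1.5-fold, after loess correction. RHBDF2, the pseudoprotease iRhom2 that carries ADAM17, was higher, by 0.60 and 0.38, the first becoming 0.58 after joint quantile normalization. Past 1.5-fold lower were 1 gene in HCT116-p53KO and 3 in HCT116, and past 1.5-fold higher 1 and 0, beside the shares of all genes given above. The 3 in HCT116 became 1 after joint quantile normalization and 1 after loess correction, as TSPAN15 and FURIN were then short of 1.5-fold. Medians were 0.00 in HCT116-p53KO and 0.09 in HCT116.

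In H1299 the same list held CLDN1, the tight junction protein claudin-1, which promotes activation of pro-MMP2, at 9.18 with NRF3 and 8.26 with GFP, a difference of 0.91. LRP1, an endocytic receptor that clears metalloproteinases and TIMPs, was at 6.06 against 6.81, or -0.76. Of 14 measured genes 1 was past 1.5-fold higher and 2 lower, beside 4.82% and 4.20% of all genes, with a median of 0.12. TSPAN33, at 0.57 as deposited, also passed 1.5-fold higher at 0.60 after joint quantile normalization and 0.61 after loess correction.

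**Figure D4:**
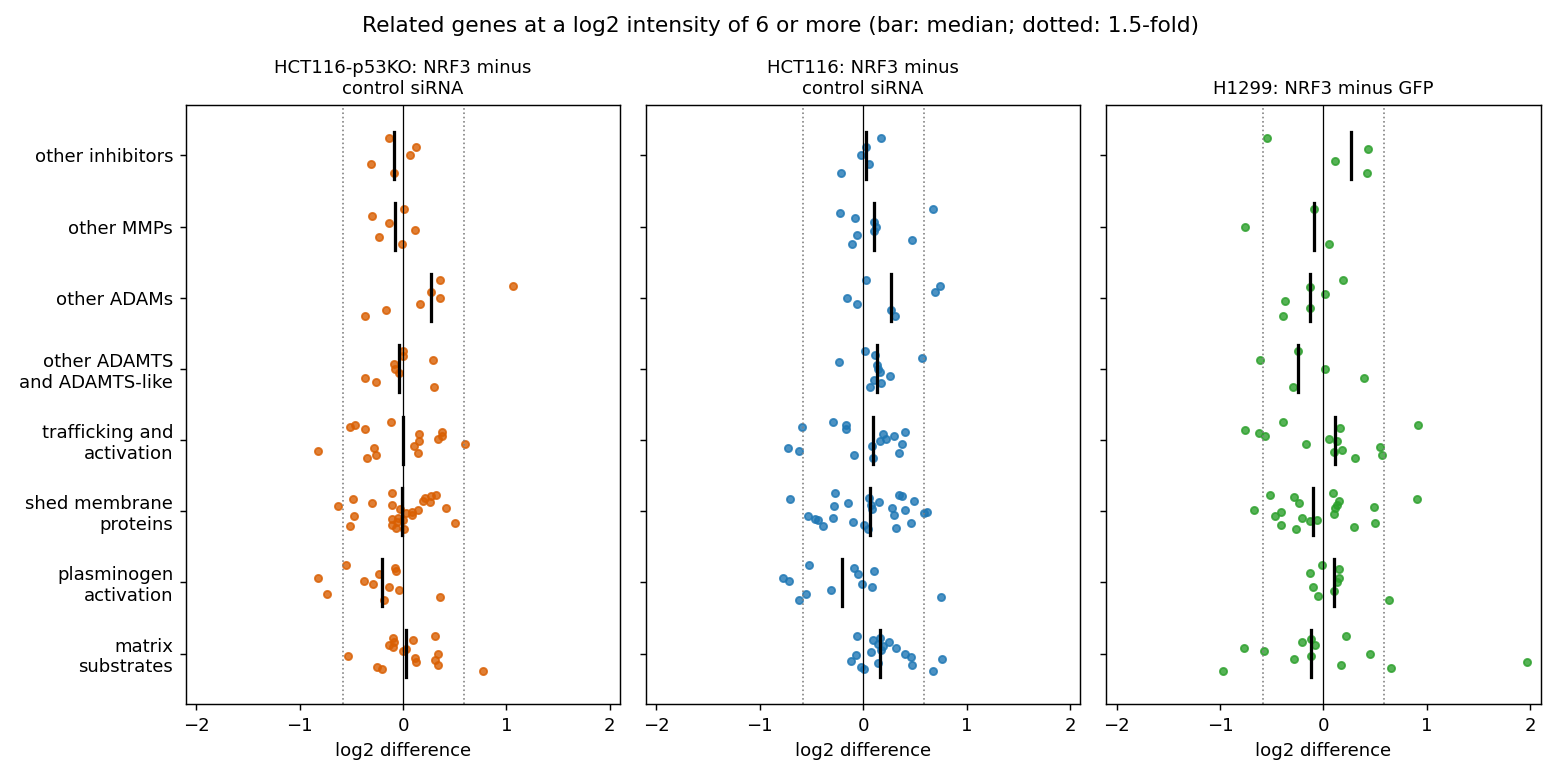
Log2 differences of related genes that reached 6 on either array compared, by list, in HCT116-p53KO, HCT116 and H1299, with 1 point per gene, black bars at medians and dotted lines at 1.5-fold. Most points lie within 1.5-fold; the plasminogen activation list has medians of -0.21 and -0.20 in the colon lines, and the point farthest right in H1299 is LAMB3 at 1.97.

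Membrane proteins shed by ADAM10 or ADAM17 showed no common direction. Of 26 measured in each colon line, 13 were higher and 13 lower in HCT116-p53KO, and 16 were higher and 10 lower in HCT116. CDH1, E-cadherin, was at 9.38 with NRF3 siRNA and 10.09 with control siRNA in HCT116, a difference of -0.71, and differed by -0.48 in HCT116-p53KO. EPHA2, a receptor tyrosine kinase, differed by -0.62 and -0.28. JAG1, a Notch ligand, differed by 0.09 and 0.62, and SDC1, the proteoglycan syndecan-1, by 0.50 and 0.46. Past 1.5-fold lower was 1 gene in each line, beside 2.38% of all genes in HCT116-p53KO and 6.02% in HCT116. Past 1.5-fold higher were 0 in HCT116-p53KO and 2 in HCT116, beside 3.63% and 2.71%. The 2 became 1 under either correction, since L1CAM, an adhesion molecule, was at 0.59 as deposited and at 0.58 after joint quantile normalization and 0.52 after loess correction. The medians of -0.01 and 0.07 compare with 0.00 and 0.01 over all genes. In H1299 CDH2, N-cadherin, was at 9.11 with NRF3 and 8.20 with GFP, and JAG1 at 6.11 against 6.78.

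Genes of plasminogen activation, which feeds into MMP activation, were mostly lower with NRF3 siRNA: 11 of 12 in HCT116-p53KO and 9 of 12 in HCT116, with medians of -0.21 and -0.20. Of all genes 49.5% and 48.4% were lower in these lines, and in HCT116 the count was 7 of 12 after joint quantile normalization and 8 of 12 after loess correction. KLK6, a kallikrein, was at 8.13 with NRF3 siRNA and 8.95 with control siRNA in HCT116-p53KO, and at 9.44 against 10.22 in HCT116. S100A10 and ANXA2, which together bind plasminogen at the cell surface, differed by -0.74 and -0.55 in HCT116-p53KO and by -0.55 and -0.53 in HCT116. PLAT, tissue plasminogen activator, differed by -0.38 and -0.72. SERPINE2, an inhibitor of plasminogen activators, was higher by 0.36 and 0.75, and by 0.63 in H1299, where the median of 9 measured genes was 0.11. Past 1.5-fold lower were 2 genes in HCT116-p53KO and 3 in HCT116, beside 2.38% and 6.02% of all genes. Past it higher were 0 and 1, beside 3.63% and 2.71%. Among the 3 lower in HCT116, ST14, the protease matriptase, had -0.62, or -0.56 after loess correction.

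Matrix substrates differed in other ways. VCAN, versican, a substrate of ADAMTS1, was at 8.69 with NRF3 siRNA and 7.92 with control siRNA in HCT116-p53KO, at 9.63 against 8.95 in HCT116, and at 6.76 with NRF3 against 7.72 with GFP in H1299. Its differences of 0.77, 0.67 and -0.97 ran opposite to NFE2L3 in all 3 lines, and how many of all genes do so was not counted. LAMA4, a laminin chain, was at 6.08 with NRF3 siRNA and 5.32, under 6, with control siRNA in HCT116. It was measured there through the NRF3 siRNA array alone, so the size of its difference is uncertain. LAMB3, the beta chain of laminin-332, was at 9.02 with NRF3 and 7.05 with GFP in H1299, a difference of 1.97, and it differed by -0.26 and -0.02 in HCT116-p53KO and HCT116. FN1, fibronectin, was at 6.30 with NRF3 against 7.07 with GFP in H1299. Of 17 measured genes in HCT116-p53KO and 19 in HCT116, 1 and 2 were past 1.5-fold higher and 0 were past it lower. The shares of all genes were 3.63% and 2.71% higher and 2.38% and 6.02% lower. Counting any size, 9 of the 17 were higher in HCT116-p53KO and 15 of the 19 in HCT116, with medians of 0.03 and 0.16. The HCT116 median was 0.10 after loess correction. By the same counting, 49.5% of all genes were lower in HCT116-p53KO and 48.4% in HCT116.

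Epithelial markers were mostly lower on the same NRF3 siRNA arrays as TIMP2. Of 7 markers, 6 were lower with NRF3 siRNA in HCT116-p53KO and 7 in HCT116, where 49.5% and 48.4% of all genes were. The marker medians were -0.48 and -0.51, and ELF3, an epithelial transcription factor, was at -0.87 and -1.12. The part of these markers in the TIMP2 and ADAM values was not tested. The mesenchymal markers measured in the colon lines, 4 of 7, lay between -0.14 and 0.09 in HCT116-p53KO and between -0.14 and 0.32 in HCT116. Of 3 leukocyte markers PTPRC and CD3E were under 6 on all arrays. CD68, a lysosomal protein best known from macrophages, was above 6 on all of them, at 8.21 with NRF3 siRNA and 8.67 with control siRNA in HCT116-p53KO, at 8.09 against 8.14 in HCT116, and at 9.99 with NRF3 against 10.53 with GFP in H1299. Its differences were -0.46, -0.05 and -0.54, and their part in the values above was not tested.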

How the data were processed

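Total RNA (100 ng) of 6 cultures was labelled and hybridised, 1 array per group, per the labels' protocols. The authors deposited log2 intensities for 33297 probe sets; the submitters' processing notes name RMA and Affymetrix Expression Console. RMA corrects background, quantile-normalizes and summarises probes. The sources used here do not say which arrays were normalized jointly.

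Of these probe sets 19460 had 1 symbol in the platform annotation, which gave 18417 genes, updated by Entrez number through RefSeq (GRCh38.p14), whose coordinates served only to find overlapping genes. Differences were counted for genes that reached 6 on any array compared. With 1 array per group no test was made, and no model across lines was fitted, because the siRNA contrast chose the genes. The members, the lists and the alternatives were chosen with earlier results of these data known.

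From each of 8 lists the up to 3 measured genes with the largest differences per NRF3 comparison could be named, and the 5 genes nearest to TIMP2 and to ADAM32. RECK, TIMP4, MMP2 and ST14 fall outside this rule and were added after their values were seen; overlapping genes and cell type markers were given as checks. Some list members are not analysed here. Counting and loess steps were tested on simulated data. Alternatives were no filter, a filter of 7, 2-fold, the mean of probe sets, joint quantile normalization of the 6 arrays and loess (span 0.4). Python 3.11.15, numpy 2.4.6, pandas 2.3.3 and statsmodels 0.14.6 were used.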

Additional observations from a re-analysis of the deposited data

Results flagged for a closer look

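The siRNA difference had opposite signs in HCT116-p53KO and HCT116 for MMP14, MMP15 and ADAMTS1, with 1 pair of arrays in each line, and the difference between the lines was not tested. For MMP14 it was -0.09 in HCT116-p53KO and 0.18 in HCT116, which is -0.27 between the lines. MMP15 had 0.01 and -0.13, or 0.15 between the lines, and the first of these turned to -0.02 after loess correction. ADAMTS1 had -0.30 and 0.45, or -0.75 between the lines, with all 4 arrays under 6.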

How the results depend on the processing

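After joint quantile normalization and after loess correction, TIMP2 stayed past 2-fold lower in both colon lines, at -1.19 in HCT116 in each case, and ADAM32 stayed past it in HCT116 and past 1.5-fold in HCT116-p53KO. No difference of a member past 1.5-fold changed sign under an alternative. ADAM9 in HCT116 was at -0.58 after joint quantile normalization. Member differences shifted by at most 0.12 under joint quantile normalization, 0.16 under loess correction and 0.44 when TIMP3's probe sets were averaged. Signs changed in 5 of 50, 4 of 50 and 1 of 5 values, each under 0.1 in size.
Counts over all genes depended on the threshold. At 2-fold, 38 were higher and 59 lower in HCT116-p53KO, 31 and 144 in HCT116, 77 and 129 in H1299, 27 and 180 between the control arrays of the colon lines, and 54 and 34 for the siRNA difference between the lines. With a filter of 7, 300 were past 1.5-fold lower in H1299 and 190 for the siRNA difference between lines, where 723 were with no filter. The other counts stayed within 1.5 times those given. Of the 5 genes nearest to TIMP2, and of those nearest to ADAM32, 4 were also named by the largest single difference. With 1 pair of arrays in each line, no paired test could be made within a line. A fit with line and siRNA as terms over the 4 HCT116-family arrays could be had and was not made, since the siRNA contrast chose the genes. Without replicates, the depth of the measurement and the error of each value are unknown.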
